A study of Homo sapiens with 6 samples.

Results

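The glutathione and thioredoxin systems were followed through 42 genes, chosen by gene name: 7 for glutathione synthesis, recycling and turnover, 5 glutathione peroxidases, 12 glutathione transferases, 11 thioredoxins, glutaredoxins and their reductases, and 7 genes for the peroxiredoxins and sulfiredoxin. They occupied 43 of the 58825 gene rows, because *GGT1* had a second row. MDA-MB-231, an established human breast cancer line of the triple-negative kind, was given disulfiram with copper (DSF/Cu, 0.2 µM, 24 h) or the vehicle DMSO, and poly(A) RNA was sequenced as paired ends. Each group had 3 repeats, with the cells of 3 wells pooled for each. Disulfiram and copper were not given singly, so what each did cannot be told apart. The labels do not say that repeats were grown separately. The p-values therefore set the difference between groups only against the variation among these samples, and that variation may be technical. In bulk RNA, fewer cells of a kind and less RNA per cell cannot be told apart.

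Glutathione is a tripeptide made by glutamate-cysteine ligase and glutathione synthetase. Peroxidases and transferases spend it on peroxides and reactive compounds, and glutathione reductase restores the oxidized form with NADPH. Thioredoxin is a small protein that reduces disulfides, is itself recharged by thioredoxin reductase and NADPH, and passes electrons to the peroxiredoxins, which remove hydrogen peroxide. Several of these genes are textbook targets of the transcription factor NRF2, which binds antioxidant response elements (ARE) together with small MAF proteins. Disulfiram was first used against alcohol dependence, and its metabolite forms a complex with copper.

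Total counts were 55563223 to 61633168 in DSF/Cu libraries and 62165212 to 70883177 in DMSO libraries. The first principal component separated the groups and took 61.8% of the variance. The 43 rows together took 0.702% to 0.712% of all counts in DSF/Cu libraries and 0.518% to 0.547% in DMSO libraries. The 6 mesenchymal-like markers of this line summed to 6326 to 7079 CPM (read counts scaled for library size) in DSF/Cu libraries and 6832 to 7137 CPM in DMSO libraries. These sums hide changes in both directions. *AXL*, *VIM* and *LGALS1* were lower with DSF/Cu (edgeR adjusted p = 0.000139, 0.0208 and 0.0400). *MSN* was higher (edgeR adjusted p = 0.000273), and *CD44* and *CAV1* did not pass the test. The hormone receptor genes *ESR1* and *PGR* were near 0, at 0.277 and 0.440 CPM in DSF/Cu and 0.105 and 0.751 CPM in DMSO. The third receptor gene that the triple-negative label refers to, *ERBB2*, was not near 0, with 39.7 ± 3.33 CPM in DSF/Cu and 69.4 ± 4.69 CPM in DMSO, and it fell (edgeR adjusted p = 0.000937). The 8 luminal markers summed to 135 to 141 CPM in DSF/Cu libraries and 230 to 272 CPM in DMSO libraries, the 3 basal markers to 3.33 to 4.24 CPM and 0.242 to 0.343 CPM, and the 3 fibroblast markers to 6.70 to 8.44 CPM and 2.15 to 3.24 CPM. *KRT5*, *DCN*, *CD3E*, *CDH5*, *ADIPOQ* and *LEP*, from the basal, fibroblast, immune, endothelial and fat cell lists, were at 0 in all 6 libraries. Other genes of the basal and fibroblast lists were not at 0. The basal gene *TP63* averaged 3.33 ± 0.565 CPM in DSF/Cu and 0.238 ± 0.111 CPM in DMSO. The fibroblast gene *COL1A1* averaged 6.07 ± 0.781 and 2.26 ± 0.894 CPM, and both rose (edgeR adjusted p = 0.000773 and 0.0115). The 4 immune markers summed to 124 to 172 CPM in DSF/Cu libraries and 94.2 to 182 CPM in DMSO libraries, nearly all of it *CD68*. Endothelial markers stayed at or under 1.099 CPM and fat cell markers at or under 0.121 CPM in each library. The part of these markers in the results was not tested.

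The promoters are shown first, because the ARE is the element most often described for these genes. RefSeq promoters of build GRCh38.p14, from 250 bases before to 50 after the start, were found for 34 of the 42 genes. A single start site was used for each gene, and other start sites were not searched. The ARE core was searched as TGACNNNGC on both strands. It occurred in 8 of the 34, against 3702 of 27305 promoters of the same length (13.56%). A match is a run of letters, not a measured binding site, and no match says only that these letters are not in the window. The stretches below are upstream of the start, read 5′ to 3′ on the gene's strand, with the match in capitals. *GCLM* carries it on the opposite strand. *GSTO1* has 2 matches, and a second match in *TXNRD1*, at the start site, is not shown.
GCLM, chr1:93909431-93909504, minus strand: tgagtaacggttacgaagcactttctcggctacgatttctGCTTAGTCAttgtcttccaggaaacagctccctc
TXNRD1, chr12:104215640-104215718, plus strand: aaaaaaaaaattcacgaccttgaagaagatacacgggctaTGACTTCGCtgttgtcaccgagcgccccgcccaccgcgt
TXNL1, chr18:56638593-56638641, minus strand: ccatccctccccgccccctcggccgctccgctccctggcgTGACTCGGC
GSTO1, chr10:104254642-104254769, plus strand: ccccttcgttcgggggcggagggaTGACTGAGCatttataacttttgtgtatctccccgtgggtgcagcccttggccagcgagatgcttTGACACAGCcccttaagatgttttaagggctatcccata
GSTP1, chr11:67583706-67583784, plus strand: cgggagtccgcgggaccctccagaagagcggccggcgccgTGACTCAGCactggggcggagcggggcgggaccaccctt
GSTM1, chr1:109687612-109687690, plus strand: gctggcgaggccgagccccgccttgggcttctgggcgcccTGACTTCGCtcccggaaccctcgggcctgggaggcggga
GSTA4, chr6:52995285-52995333, minus strand: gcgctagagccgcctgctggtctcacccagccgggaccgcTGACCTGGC

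The eighth match was in *GPX2*, the gastrointestinal peroxidase, which had 0 counts in all 6 libraries. Of the 7 stretches, those of *GCLM*, *TXNRD1*, *TXNL1* and *GSTO1* belong to genes that rose with DSF/Cu. *GSTM1* and *GSTA4* fell, and *GSTP1* did not pass the test. *GSTM1* and *TXNRD1* have the same letters at the match, TGACTTCGC, although *TXNRD1* rose and *GSTM1* fell. Among the other risers, *GCLC*, *GGT1*, *GPX8*, *SRXN1*, *GLRX*, *TXNIP* and *MGST3* had a RefSeq promoter without the core in this window. For the risers *GSR*, *PRDX1* and *GLRX3* no RefSeq promoter was found.

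The comparison of DSF/Cu with DMSO asked how the genes of each system stood after treatment. In 14 of the 41 rows tested (34.1%) expression was higher with DSF/Cu, against 18.5% of all 18229 genes tested, and in 7 (17.1%) it was lower, against 16.8% of all genes. A call is an adjusted p under 0.05 in edgeR's quasi-likelihood test, adjusted over all genes. Together 21 rows were called, against 35.2% of all genes. Rises of at least 1.5-fold were called for 10 rows, against 11.9% of all genes. In 29 rows the libraries of the groups did not overlap, against 51.2% of all genes. These shares were not matched for count level. A mean count of at least 1000 was reached by 34 of the 41 rows, against 8361 of all 18229 genes. With a minimum of 1 CPM in 3 libraries, 16 of the 41 rows and 3208 of 13970 genes were called higher. The median log2 fold change was 0.10 over the 41 rows and 0.00 over all genes. Fold changes ran from -0.81 for *GSTA4* to 1.498 for *GCLM*. *GPX2* and the second *GGT1* row, with 115, 6 and 4 counts in DSF/Cu and 0, 2 and 1 in DMSO, were too low to test. With libraries scaled by total count in place of the trimmed mean of M-values (TMM), 11 rows were called higher and 13 lower. Of all 18229 genes, 2356 were called higher and 4856 lower in that setting, and the median of all genes was -0.18. The counts under total-count scaling given below are to be read against these. Without DMSO replicate 2 or DMSO replicate 3, 2 and 4 rows were called lower in place of 7. Of all genes, 2284 and 2348 were then called lower in place of 3059. The direction of small changes depended on the scaling, and the genes whose call it changed are named below.

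**Figure D1:**
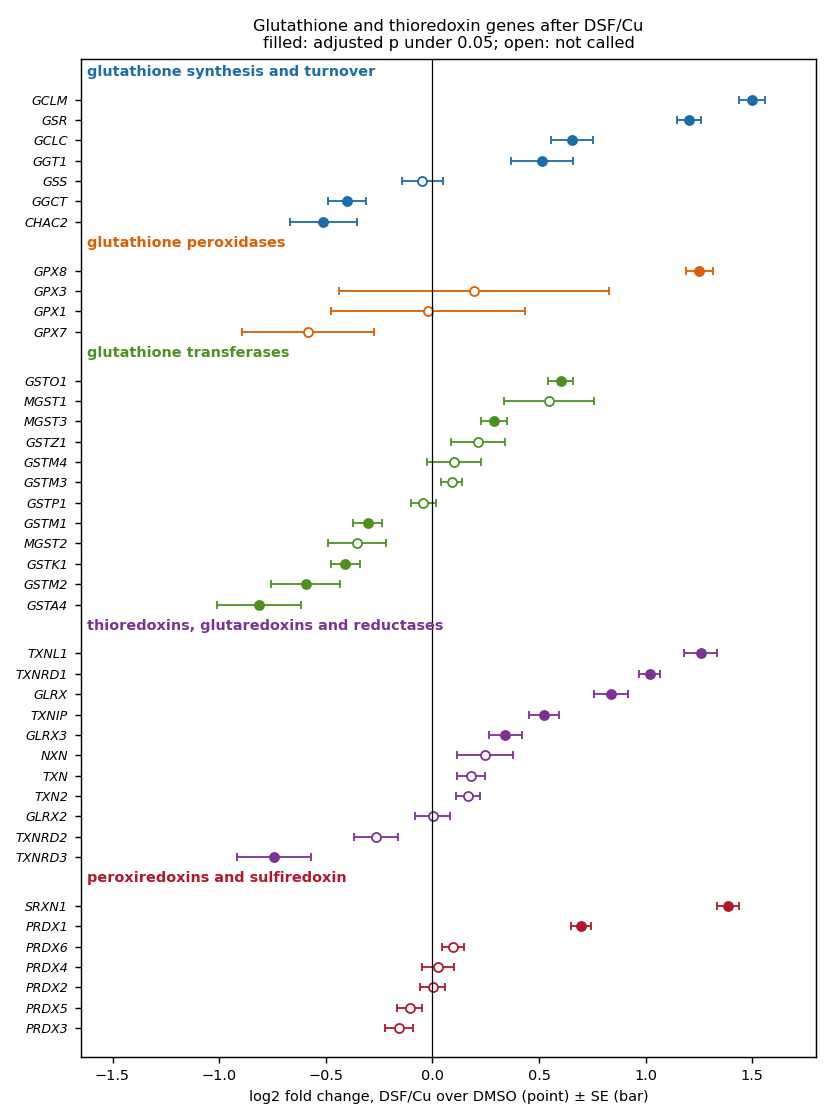
Log2 fold change (DSF/Cu over DMSO, point) with its standard error (bar) for the 41 rows tested, grouped by gene class and ordered within each. Filled points passed the adjusted p of 0.05 and open points did not; the 14 filled points to the right of 0 are led by *GCLM* at 1.498 and the 7 to the left by *GSTA4* at -0.81.

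Among the genes of glutathione synthesis and turnover, 4 of 7 rose and 2 fell, against 18.5% and 16.8% of all genes tested. The median log2 fold change was 0.51. Under total-count scaling 3 rose and 2 fell. *GCLM*, the modifier subunit of glutamate-cysteine ligase (ENSG00000023909, chromosome 1, 93885199 to 93909456, minus strand, GRCh38), had 384, 384 and 369 CPM in DSF/Cu libraries and 129, 129 and 145 CPM in DMSO libraries. All 3 treated libraries stood far above all 3 vehicle libraries. Its log2 fold change was 1.498 ± 0.06 (SE, edgeR adjusted p = 3.43e-05), a 2.83-fold rise. *GCLC*, the catalytic subunit of the same ligase (chromosome 6, 53497341 to 53548206, minus strand), had 69.2, 73.6 and 74.7 CPM with DSF/Cu and 42.8, 52.5 and 42.9 CPM with DMSO. It rose by 0.65 ± 0.10 on the log2 scale (1.57-fold, edgeR adjusted p = 0.00294), again without overlap.

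*GSS*, glutathione synthetase, which adds glycine in the second step of synthesis, had 123, 96.7 and 102 CPM in DSF/Cu libraries and 113, 107.5 and 111 CPM in DMSO libraries. The groups overlapped, because the first treated library was above all vehicle libraries and the others were below them. The difference was -0.05 ± 0.10 on the log2 scale, with a 95% interval of -0.28 to 0.18 (edgeR adjusted p = 0.742), which excludes a rise as large as that of *GCLC*. *GSR*, the reductase that restores glutathione from its oxidized disulfide, had 131, 127 and 121 CPM with DSF/Cu and 56.3, 53.9 and 54.2 CPM with DMSO. Its libraries lay close together within each group and far apart between groups, at 1.20 ± 0.06 on the log2 scale (2.30-fold, edgeR adjusted p = 5.11e-05).

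Turnover genes moved less and in both directions. *GGT1*, the surface enzyme that cleaves glutathione outside the cell, averaged 12.01 ± 1.42 CPM in DSF/Cu and 8.42 ± 1.02 CPM in DMSO (SD, n = 3 each), a log2 fold change of 0.51 ± 0.15 (edgeR adjusted p = 0.0339). *GGCT*, which releases 5-oxoproline from gamma-glutamyl compounds, averaged 33.2 ± 2.26 and 43.9 ± 3.41 CPM in DSF/Cu and DMSO, a 1.32-fold fall (edgeR adjusted p = 0.0142). *CHAC2*, a cytosolic enzyme that breaks glutathione down, averaged 13.5 ± 1.95 and 19.3 ± 2.85 CPM in DSF/Cu and DMSO, a 1.43-fold fall (edgeR adjusted p = 0.0444). In all 3 the groups did not overlap, but the calls lay near the threshold. The *GGT1* call ended without DSF/Cu replicate 2 or 3 or DMSO replicate 2 or 3 (log2 0.42 to 0.53, edgeR adjusted p 0.0719 to 0.0989), under total-count scaling (0.33, 0.142) and with no filter (0.49, 0.0667). The *CHAC2* call ended without DSF/Cu replicate 1 or 2 or DMSO replicate 2 or 3 (log2 -0.48 to -0.42, adjusted p 0.117 to 0.129) and with no filter (-0.53, 0.0523), and the *GGCT* call without DMSO replicate 2 (-0.38, 0.0505). *GGT1* also shares 35.9% of its 50-base exon words with other genes, most of all *GGT2*, *GGT3P* and *GGTLC2*, so its reads may have been split.

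**Figure D2:**
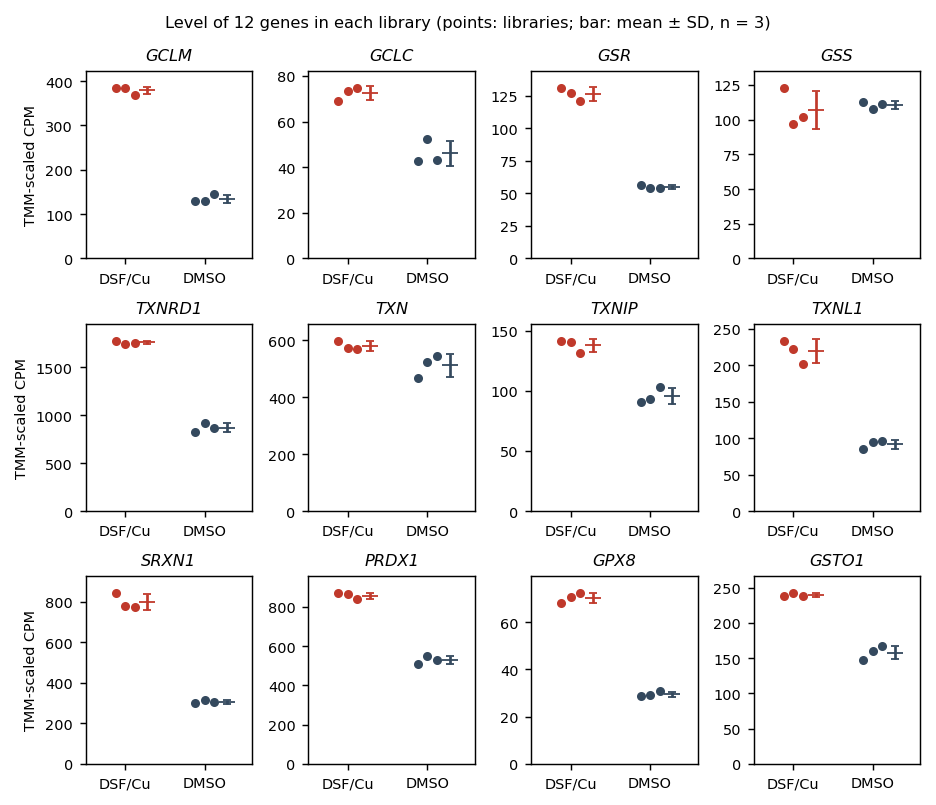
TMM-scaled CPM (linear axis from 0) of 12 genes in each DSF/Cu and DMSO library, with points for libraries and a bar for mean ± SD (n = 3 each). The DSF/Cu points lie above all DMSO points for 11 of the genes, and for *GSS* the groups overlap.

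Of the 4 glutathione peroxidases tested, *GPX8* alone passed the test. It encodes a peroxidase of the endoplasmic reticulum membrane and lies on chromosome 5, 55160167 to 55167071, plus strand. *GPX8* had 68.1, 70.6 and 72.3 CPM in DSF/Cu libraries and 28.6, 29.3 and 30.7 CPM in DMSO libraries. The groups were apart by much more than their spread, at 1.25 ± 0.06 on the log2 scale (2.38-fold, edgeR adjusted p = 6.8e-05). *GPX7*, the other peroxidase of the endoplasmic reticulum, was low, at 1.55 ± 0.598 CPM in DSF/Cu and 2.33 ± 0.233 CPM in DMSO. Its log2 fold change was -0.59 with a 95% interval of -1.33 to 0.16 (edgeR adjusted p = 0.196).

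*GPX1*, the cytosolic and mitochondrial selenoenzyme that reduces hydrogen peroxide, had 78.1, 23.8 and 25.3 CPM in DSF/Cu libraries and 45.6, 42.6 and 40.8 CPM in DMSO libraries. The first treated library was above every vehicle library, and the other 2 were below every one. Over all libraries the log2 fold change was -0.02 with a 95% interval of -1.11 to 1.07 (edgeR adjusted p = 0.978). Without DSF/Cu replicate 1 it was -0.81 and passed the test (edgeR adjusted p = 0.00290). The raw counts behind these levels were 4404, 1372 and 1339 in DSF/Cu and 3476, 2859 and 2698 in DMSO, so counting error does not limit them. *GPX1* shares 14.7% of its 50-base words with its copies *GPX1P1* (224 words) and *GPX1P2* (38 words). *GPX1P1* held 21, 15 and 27 counts in DSF/Cu and 94, 74 and 42 in DMSO. *GPX1* is annotated as a polymorphic pseudogene, so the alternative with protein-coding genes only left it out.

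*GPX3*, which encodes the secreted peroxidase found in plasma, had 40.8, 103 and 21.6 CPM with DSF/Cu and 62.8, 60.8 and 21.0 CPM with DMSO. Both groups spanned a wide range and overlapped, and the 95% interval of the log2 fold change ran from -1.32 to 1.71 (edgeR adjusted p = 0.845). *MGST1*, a transferase of the endoplasmic reticulum and outer mitochondrial membrane that also reduces lipid peroxides, shared the high first treated library. It had 268, 167 and 154 CPM with DSF/Cu and 121, 140.0 and 141 CPM with DMSO. Every treated library was above every vehicle library, but the log2 fold change of 0.55 ± 0.21 did not pass in edgeR (adjusted p = 0.0900), whereas it did in DESeq2 (0.55, adjusted p = 0.0237). Without DSF/Cu replicate 1 the edgeR estimate was 0.26 (adjusted p = 0.0846). These were the only 3 of the 34 rows with a mean count of at least 1000 (8.82%) in which the highest and lowest library of a group differed 1.5-fold or more, against 1299 of 8361 such genes overall (15.5%).

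**Figure D3:**
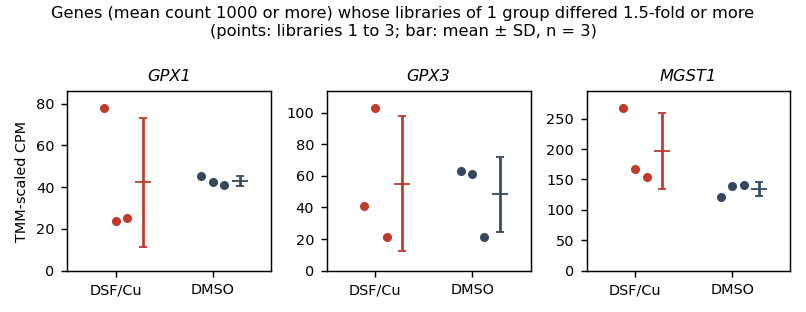
TMM-scaled CPM (linear axis from 0) of *GPX1*, *GPX3* and *MGST1* in each library, DSF/Cu beside DMSO, with mean ± SD (n = 3 each). The first DSF/Cu library is the highest for *GPX1* at 78.1 and *MGST1* at 268, and the second for *GPX3* at 103.

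Of the 12 glutathione transferases, 2 were higher, 4 lower and 6 not called, against 18.5% higher and 16.8% lower of all genes tested. The median log2 fold change was 0.02. With total-count scaling 1 was higher and 6 were lower, the added falls being *GSTP1* (-0.23, edgeR adjusted p = 0.0156) and *MGST2* (-0.54, 0.0199), and the median was -0.16. *GSTO1*, an omega-class enzyme that reduces dehydroascorbate and mixed disulfides, had 238, 242 and 239 CPM in DSF/Cu libraries and 147, 159.7 and 167 CPM in DMSO libraries. Treated libraries lay close together above the vehicle libraries, at 0.60 ± 0.06 on the log2 scale (1.52-fold, edgeR adjusted p = 0.000612). *MGST3*, a membrane enzyme with transferase and peroxidase activity, averaged 60.2 ± 2.24 CPM in DSF/Cu and 49.3 ± 1.68 CPM in DMSO, a log2 rise of 0.29 ± 0.06 (edgeR adjusted p = 0.0124). That call ended under total-count scaling (0.10, adjusted p = 0.267) and without DMSO replicate 2 (0.26, adjusted p = 0.0511).

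*GSTA4*, an alpha-class enzyme that conjugates aldehydes formed from oxidized lipids, had the deepest fall among these genes. It had 8.88, 8.75 and 5.81 CPM in DSF/Cu libraries and 15.3, 11.8 and 14.1 CPM in DMSO libraries, without overlap. The log2 fold change was -0.81 ± 0.20, a 1.76-fold fall (edgeR adjusted p = 0.0201), and the call ended without DMSO replicate 1 or 3 (log2 -0.73 and -0.80, adjusted p 0.0648 and 0.0565). *GSTK1*, the kappa-class enzyme of mitochondria and peroxisomes, averaged 38.0 ± 1.96 CPM in DSF/Cu and 50.4 ± 1.52 CPM in DMSO. It fell by 0.41 ± 0.07 on the log2 scale (edgeR adjusted p = 0.00474), and it was the only one of the 7 fallers that stayed called in all 13 alternative analyses.

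The mu-class genes lie side by side on chromosome 1, with *GSTM4* (109656099 to 109674836), *GSTM2* (109668022 to 109709549) and *GSTM1* (109687814 to 109709039) on the plus strand and *GSTM3* (109733932 to 109741038) on the minus strand. *GSTM2* had 5.30, 4.52 and 6.11 CPM in DSF/Cu libraries and 7.35, 7.82 and 8.90 CPM in DMSO libraries. Its groups did not overlap, and it fell 1.51-fold (edgeR adjusted p = 0.0285). *GSTM1* averaged 42.9 ± 2.29 CPM in DSF/Cu and 53.0 ± 2.09 CPM in DMSO and fell by 0.30 ± 0.07 on the log2 scale (edgeR adjusted p = 0.0158). Both calls lay near the threshold. *GSTM2* was not called without DSF/Cu replicate 1 or 2 or DMSO replicate 2 or 3 (log2 -0.62 to -0.49 against -0.60 with all libraries, adjusted p 0.0678 to 0.0860), and *GSTM1* was not called without DMSO replicate 2 (log2 -0.29, adjusted p 0.0567). *GSTM4* averaged 22.5 ± 1.19 and 21.0 ± 3.09 CPM, and *GSTM3* 139 ± 1.77 and 130.3 ± 4.56 CPM, in DSF/Cu and DMSO, and neither was called (edgeR adjusted p = 0.583 and 0.224). *GSTM2* shares 559 exon bases with *GSTM1* and 375 with *GSTM4*, and 49.7% of the 50-base words of *GSTM1* occur in other genes, so the reads of these genes may not be separable.

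*GSTP1*, the pi-class transferase and the highest of the 12 by FPKM in DMSO, had 218, 194 and 213 CPM with DSF/Cu and 212, 215 and 216 CPM with DMSO. The groups overlapped, and the 95% interval of the log2 fold change was -0.18 to 0.09 (edgeR adjusted p = 0.612). *GSTZ1*, which isomerizes maleylacetoacetate in tyrosine breakdown, averaged 17.5 ± 2.57 and 15.1 ± 0.665 CPM in DSF/Cu and DMSO (adjusted p = 0.247). *MGST2*, related to leukotriene C synthase, averaged 8.96 ± 1.14 and 11.5 ± 0.888 CPM in DSF/Cu and DMSO (adjusted p = 0.0899).

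In the thioredoxin branch 5 of 11 genes rose and 1 fell, against 18.5% and 16.8% of all genes tested. The median log2 fold change was 0.25. With total-count scaling 4 rose and 2 fell, and the median was 0.06. *TXNRD1*, the cytosolic thioredoxin reductase and a selenoprotein (ENSG00000198431, chromosome 12, 104215779 to 104350307, plus strand), had 1777, 1746 and 1752 CPM in DSF/Cu libraries and 822, 918 and 863 CPM in DMSO libraries. It was the most heavily counted of the 42 genes, and its treated libraries lay close together. It rose by 1.02 ± 0.05 on the log2 scale (2.03-fold, edgeR adjusted p = 5.72e-05). *TXN*, thioredoxin itself, had 599, 572 and 569 CPM with DSF/Cu and 466, 523 and 546 CPM with DMSO. Its groups did not overlap, but the log2 fold change was 0.18 ± 0.07 with a 95% interval of 0.02 to 0.34 and was not called (edgeR adjusted p = 0.0782). That call was gained with a minimum of 1 CPM in 3 libraries (0.0461) and with protein-coding genes only (0.0450), and under total-count scaling the estimate was 0.00. The rise in the reductase was therefore larger than the interval allows for its substrate.

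*TXNIP* encodes a protein that binds reduced thioredoxin and inhibits it, and lies on chromosome 1, 145992435 to 145996600, minus strand. It had 142, 140.2 and 131 CPM in DSF/Cu libraries and 90.9, 93.5 and 103 CPM in DMSO libraries. The groups did not overlap, and it rose by 0.52 ± 0.07 on the log2 scale (1.44-fold, edgeR adjusted p = 0.00189). *TXNL1*, a thioredoxin-like protein that associates with the proteasome, had 234, 223 and 202 CPM with DSF/Cu and 84.8, 94.9 and 95.7 CPM with DMSO. At 1.26 ± 0.08 on the log2 scale (2.39-fold, edgeR adjusted p = 0.00014) it had the largest rise of the 11. A stretch of 234 exon bases overlaps *WDR7* on the opposite strand, and whether reads were counted by strand is not given in the sources used here. *WDR7* held 4886 counts over the 6 libraries and *TXNL1* 55877.

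*GLRX*, the cytosolic glutaredoxin that removes glutathione from protein thiols, had 102, 110.0 and 119 CPM in DSF/Cu libraries and 60.3, 65.7 and 59.3 CPM in DMSO libraries. It rose 1.79-fold without overlap (log2 0.84 ± 0.08, edgeR adjusted p = 0.000536). *GLRX3*, a glutaredoxin that carries iron-sulfur clusters, averaged 187 ± 6.71 CPM in DSF/Cu and 148 ± 14.0 CPM in DMSO and rose 1.27-fold (edgeR adjusted p = 0.0166). The *GLRX3* call ended under total-count scaling (log2 0.16, adjusted p = 0.158) and without DSF/Cu replicate 2 (0.32, 0.0547). *GLRX2*, the mitochondrial and nuclear glutaredoxin, averaged 34.9 ± 1.54 and 34.9 ± 2.64 CPM in DSF/Cu and DMSO (adjusted p = 0.992). *NXN*, nucleoredoxin, averaged 49.6 ± 3.30 and 41.8 ± 7.33 CPM in DSF/Cu and DMSO with overlap (adjusted p = 0.202), and was called higher without DMSO replicate 1 (log2 0.39, adjusted p = 0.0316).

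The other reductases had low counts and did not follow *TXNRD1*. *TXNRD3*, the thioredoxin and glutathione reductase best known from testis, had 4.25, 5.66 and 4.65 CPM with DSF/Cu and 8.20, 9.23 and 6.93 CPM with DMSO. It fell by 0.74 ± 0.17 on the log2 scale (1.67-fold, edgeR adjusted p = 0.0172), and the call ended without DSF/Cu replicate 1 or 3 or DMSO replicate 1 or 2 (log2 -0.74 to -0.64, adjusted p 0.0509 to 0.0589). *TXNRD2*, the mitochondrial reductase, averaged 12.6 ± 0.401 CPM in DSF/Cu and 15.1 ± 1.27 CPM in DMSO, and was not called (log2 -0.26, edgeR adjusted p = 0.0934) except under total-count scaling (-0.45, 0.0157). *TXN2*, the mitochondrial thioredoxin, averaged 58.0 ± 1.15 CPM in DSF/Cu and 51.7 ± 1.14 CPM in DMSO without overlap. Its log2 fold change of 0.17 ± 0.06 was not called (edgeR adjusted p = 0.0593), was called with a minimum of 1 CPM (0.0302) or protein-coding genes only (0.0291), and was -0.02 under total-count scaling.

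Of the peroxiredoxins and sulfiredoxin, 2 of 7 rose, against 18.5% of all genes tested, and 5 were not called. The median log2 fold change was 0.02. Under total-count scaling the same 2 rose, while *PRDX3* (-0.34), *PRDX5* (-0.29) and *PRDX2* (-0.18) were called lower (edgeR adjusted p = 0.00859, 0.00871 and 0.0409). *SRXN1*, sulfiredoxin, which restores overoxidized peroxiredoxins (ENSG00000271303, chromosome 20, 646615 to 653370, minus strand), had 843, 779.5 and 774.5 CPM in DSF/Cu libraries and 299, 315 and 304 CPM in DMSO libraries. It rose 2.61-fold with no overlap (log2 1.38 ± 0.05, edgeR adjusted p = 2.52e-05). Of its 50-base words 84.7% lie also in the overlapping gene AL121758, which held 717 counts over the 6 libraries against 197540 for *SRXN1*.

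*PRDX1*, the abundant cytosolic peroxiredoxin on chromosome 1 (45511036 to 45521938, minus strand), had 869.6, 863 and 839 CPM in DSF/Cu libraries and 508, 548 and 530.4 CPM in DMSO libraries. It rose 1.62-fold with no overlap (log2 0.70 ± 0.04, edgeR adjusted p = 0.000151). *PRDX2*, its closest cytosolic relative, averaged 112 ± 5.17 CPM in DSF/Cu and 112 ± 3.50 CPM in DMSO (adjusted p = 0.986). The mitochondrial *PRDX3* averaged 238 ± 12.3 and 265 ± 15.2 CPM in DSF/Cu and DMSO (adjusted p = 0.107). *PRDX4* of the endoplasmic reticulum averaged 65.9 ± 3.88 and 64.8 ± 4.02 CPM, *PRDX5* of mitochondria and peroxisomes 59.9 ± 1.66 and 64.5 ± 2.47 CPM, and the cytosolic *PRDX6* 381 ± 7.76 and 356 ± 17.6 CPM in DSF/Cu and DMSO (edgeR adjusted p = 0.832, 0.218 and 0.200). *PRDX1* was thus the only peroxiredoxin of 6 called higher under TMM.

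Ratios of partner genes within a library do not depend on scaling, and 5 pairs were compared. The pairs were chosen with earlier results of these data known. The direction and separation of the ratios therefore give no independent support, and only the sizes of the shifts are read here. All 5 ratios were higher in each DSF/Cu library than in every DMSO library. The log2 ratio of *GCLM* to *GCLC* counts averaged 2.39 ± 0.08 in DSF/Cu and 1.55 ± 0.23 in DMSO (SD, n = 3 each), so the modifier subunit gained 1.79-fold on the catalytic one. *GSR* over *GSS* averaged 0.25 ± 0.15 in DSF/Cu and -1.01 ± 0.02 in DMSO, a 2.39-fold shift. *TXNRD1* over *TXNRD2* averaged 7.13 ± 0.06 in DSF/Cu and 5.85 ± 0.04 in DMSO, a 2.43-fold shift. Of these 2 genes only *TXNRD1* was called, and *TXNRD2* was not (log2 -0.26, edgeR adjusted p = 0.0934). *SRXN1* over *PRDX1* averaged -0.10 ± 0.05 and -0.79 ± 0.02 in DSF/Cu and DMSO, a 1.61-fold shift. *TXNIP* over *TXN* moved least, at -2.07 ± 0.04 and -2.41 ± 0.06 in DSF/Cu and DMSO, a 1.27-fold shift of the inhibitor against its target. The exact two-sided permutation p was 0.1 for each, also after adjustment over the 5, and 0.1 is the smallest that 3 against 3 libraries can give.

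**Figure D4:**
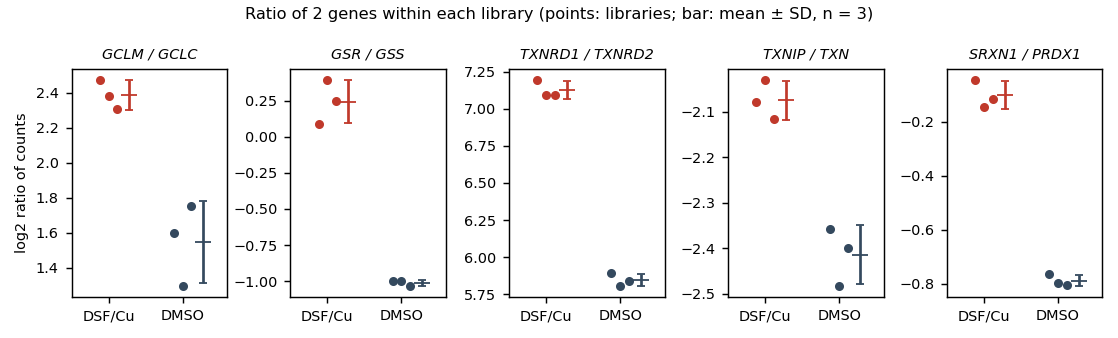
Log2 ratio of the counts of 2 genes in each DSF/Cu and DMSO library for 5 pairs, with mean ± SD (n = 3 each). In every panel the 3 DSF/Cu points lie above the 3 DMSO points, and the largest shift is that of *TXNRD1* over *TXNRD2* (7.13 against 5.85).

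Levels of different genes were compared by FPKM, which divides by transcript length. *TXN* led in DMSO at 457 ± 34.4 FPKM (SD, n = 3) and stood at 459.7 ± 4.71 FPKM in DSF/Cu. *PRDX1* came next in DMSO, at 456 ± 4.91 FPKM in DSF/Cu and 317 ± 9.91 FPKM in DMSO, so that with DSF/Cu its level was within the spread of that of *TXN*. *PRDX6* followed with 132 ± 1.25 FPKM in DSF/Cu and 139 ± 6.16 FPKM in DMSO. *TXNRD1* had 209.8 ± 2.25 FPKM in DSF/Cu and 117 ± 5.69 FPKM in DMSO, and *SRXN1* 237 ± 7.05 and 102 ± 2.16 FPKM, so both stood above *PRDX6* with DSF/Cu and below it with DMSO. The neighbours in DMSO were *SRXN1* and *GSTP1*, with *GSTP1* at 87.2 ± 4.72 FPKM in DSF/Cu and 101 ± 0.382 FPKM in DMSO, and their DMSO levels did not differ beyond their spread. At the low end *TXNRD2* held 1.22 ± 0.0578 FPKM in DSF/Cu and 1.65 ± 0.128 FPKM in DMSO. These FPKM values carry no TMM scaling.

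Related genes outside the 42 were counted in 5 further lists. Each count is to be read against the shares of all genes tested, 18.5% higher and 16.8% lower. NRF2 and its partners had 6 of 11 higher and 1 lower (median log2 fold change 0.72), and 6 and 2 under total-count scaling or without DMSO replicate 3. Without DSF/Cu replicate 2 the median was 0.44, with 6 higher and 1 lower. *NFE2L2*, which encodes NRF2, averaged 316 ± 0.426 CPM in DSF/Cu and 191 ± 1.94 CPM in DMSO and rose by 0.72 ± 0.04 on the log2 scale (edgeR adjusted p = 0.0001). *SQSTM1*, whose product binds the NRF2 inhibitor KEAP1, averaged 1977 ± 68.2 and 756 ± 21.5 CPM in DSF/Cu and DMSO, and the small MAF gene *MAFF* 168 ± 11.9 and 74.4 ± 0.963 CPM, and both rose (edgeR adjusted p = 1.59e-05 and 9.69e-05). *NFE2L3*, the faller of this list and a relative of NRF2, averaged 85.3 ± 4.85 CPM in DSF/Cu and 163 ± 6.43 CPM in DMSO (edgeR adjusted p = 0.000183).

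Of 22 other glutathione genes tested, 4 rose and 8 fell (3 and 12 under total-count scaling), with a median of -0.29, and 4 fell without DSF/Cu replicate 1 or 3 or DMSO replicate 2 or 3. The 4 that rose were *CTH*, *SLC7A11*, *SLC3A2* and *CHAC1*. *CTH*, which makes cysteine from cystathionine, averaged 30.9 ± 1.51 CPM in DSF/Cu and 5.61 ± 0.282 CPM in DMSO (log2 2.46 ± 0.09, edgeR adjusted p = 2.53e-05). *SLC7A11* and *SLC3A2*, the chains of the cystine importer, averaged 326 ± 26.8 and 363 ± 18.9 CPM in DSF/Cu and 249 ± 3.995 and 183 ± 15.1 CPM in DMSO (edgeR adjusted p = 0.00573 and 0.000264). The *SLC7A11* call ended under total-count scaling (log2 0.20, adjusted p = 0.0845). *CHAC1*, a glutathione-degrading enzyme and relative of *CHAC2*, averaged 15.4 ± 0.646 CPM in DSF/Cu and 9.04 ± 0.746 CPM in DMSO and rose by 0.77 ± 0.11 (edgeR adjusted p = 0.00243), whereas *CHAC2* fell. *LANCL1*, a glutathione-binding protein, averaged 56.3 ± 3.33 CPM in DSF/Cu and 91.9 ± 0.787 CPM in DMSO and fell (edgeR adjusted p = 0.000446). *GPX4*, the lipid peroxide reductase, averaged 85.5 ± 11.7 CPM in DSF/Cu and 96.4 ± 7.62 CPM in DMSO and was not called (edgeR adjusted p = 0.285), except under total-count scaling (0.0328).

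Selenocysteine is the catalytic residue of the 3 thioredoxin reductases and of *GPX1*, *GPX2* and *GPX3*. Of 20 genes of selenocysteine machinery and other selenoproteins tested, 5 rose and 7 fell (2 and 8 under total-count scaling), with a median of -0.03, and 3 rose without DMSO replicate 1. *SEPHS2*, which makes the selenium donor, averaged 77.5 ± 3.71 CPM in DSF/Cu and 95.3 ± 2.19 CPM in DMSO and fell by 0.30 ± 0.06 on the log2 scale (edgeR adjusted p = 0.00902). Its relative *SEPHS1* fell too, with 82.5 ± 5.09 and 127 ± 2.46 CPM in DSF/Cu and DMSO (edgeR adjusted p = 0.000699). *SELENOK*, a selenoprotein of the endoplasmic reticulum, averaged 76.0 ± 6.24 CPM in DSF/Cu and 27.5 ± 3.88 CPM in DMSO and rose (edgeR adjusted p = 0.000332). *SELENON*, of the same organelle, averaged 53.6 ± 0.597 CPM in DSF/Cu and 88.1 ± 6.69 CPM in DMSO, and the mitochondrial *SELENOO* 8.40 ± 0.632 and 16.6 ± 1.73 CPM, and both fell (edgeR adjusted p = 0.000616 and 0.0015).

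Of 27 other thioredoxin-fold and related redox genes tested, 7 rose and 6 fell, against 18.5% and 16.8% of all genes. Under total-count scaling 2 rose and 10 fell. The median was 0.06, and 4 rose without DMSO replicate 1 or 3. *SESN2*, a stress-induced sestrin, averaged 87.8 ± 8.11 CPM in DSF/Cu and 13.1 ± 1.04 CPM in DMSO (log2 2.75 ± 0.10, edgeR adjusted p = 2.48e-05). The oxidase gene *ERO1B* averaged 20.7 ± 0.721 and 12.8 ± 1.75 CPM in DSF/Cu and DMSO and rose (adjusted p = 0.00536). The disulfide isomerase gene *PDIA4* averaged 366 ± 2.23 and 469 ± 9.65 CPM, and the membrane thioredoxin-like gene *TMX4* 41.5 ± 2.14 and 60.6 ± 4.88 CPM, in DSF/Cu and DMSO, and both fell (adjusted p = 0.00104 and 0.00317). Of the 8 arrestin-domain relatives and known regulators of *TXNIP*, 4 rose and 0 fell (2 and 1 under total-count scaling), with a median of 0.14, and 2 rose without DSF/Cu replicate 2 or DMSO replicate 1 or 3. *ARRDC3* averaged 136 ± 8.67 CPM in DSF/Cu and 63.5 ± 4.81 CPM in DMSO, and *ARRDC2* 34.9 ± 2.56 and 21.5 ± 0.453 CPM, and both rose (adjusted p = 0.000222 and 0.00115). *ARRDC4*, the relative closest to *TXNIP*, was at 1.28 ± 0.359 CPM in DSF/Cu and 0.551 ± 0.197 CPM in DMSO (adjusted p = 0.0487), and *MAX* at 76.7 ± 2.55 and 65.4 ± 1.47 CPM (adjusted p = 0.0196). Both of these calls ended under total-count scaling (0.0712 and 0.569) and without DSF/Cu replicate 2 (0.135 and 0.0560), DMSO replicate 1 (0.135 and 0.0555) or DMSO replicate 3 (0.132 and 0.0751), and that of *ARRDC4* also without DSF/Cu replicate 1 (0.123).

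**Figure D5:**
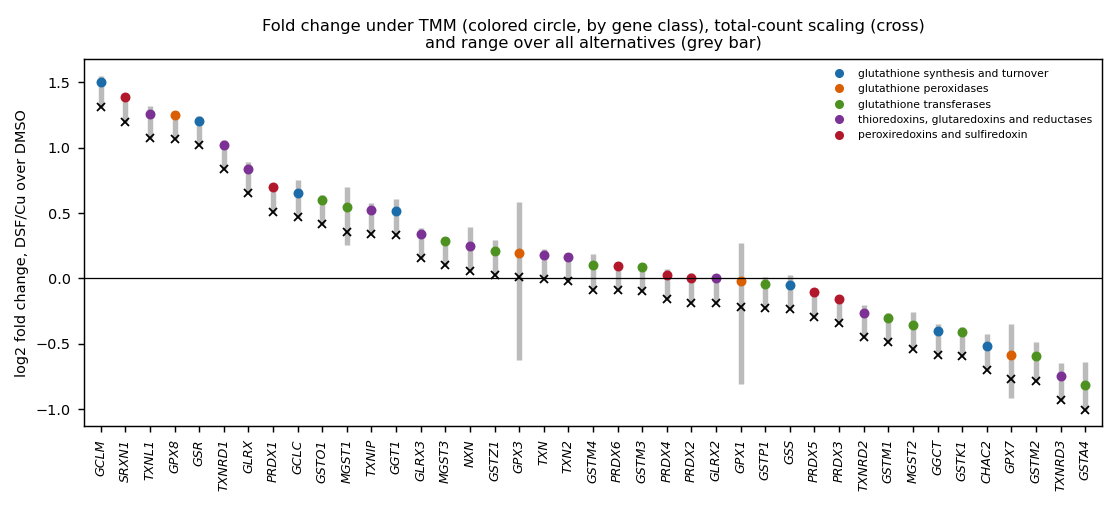
Log2 fold change (DSF/Cu over DMSO) of the 41 rows under TMM (colored circle, by class), under total-count scaling (cross) and over all 13 alternatives (grey bar). Crosses lie below circles throughout, and 11 of the 14 rises stay called higher under total-count scaling while 13 rows are called lower.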

How the data were processed

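Per the labels' protocols, poly(A) RNA was sequenced as paired ends on a NovaSeq instrument. The deposited gene table holds whole-number counts and FPKM values for 6 libraries, per the file headers. FPKM values were computed by the authors, and a count of 0 is listed as at most 0.0001. Columns headed Control were taken as DMSO, the only untreated group. The submitters' processing notes name Bowtie 0.12.2, HISAT2 2.0, StringTie 1.3.0 and the mouse build mm8. The genes are human: of 58825 IDs, 58552 occur in GENCODE 29, and 58235 have the chromosome of that release and a start no more than 1 kb away, so GRCh38 is used. The read counter, its strand setting and the annotation release were not given in the sources used here. Thus reads shared by copies or by overlapping genes cannot be separated.

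Counts were filtered (filterByExpr), TMM-scaled and tested with edgeR 4.0.16 in R 4.3.3 (quasi-likelihood F test, two-sided, Benjamini-Hochberg over 18229 genes, both groups, no covariates). Of 58825 genes, 29536 had 0 counts in every library, and 8151 had an unadjusted p under 0.05. The SE was taken as the size of the log2 fold change divided by the root of F, and intervals are 95%. Libraries of a group differed by a chi-square per degree of freedom of 49.8 to 63.0, so none is a copy. The steps were tested on simulated counts. Exon lengths, overlaps and shared 50-base words came from GENCODE 29, promoters from RefSeq.

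Genes, lists and pairs were chosen with earlier results of these data known. Values per library are given for genes called with at least 1.5-fold and for *GSS*, *GPX1*, *GSTP1*, *TXN* and *TXNIP*; *GPX3* and *MGST1* were added after their values were seen. From each further list up to 4 called genes by adjusted p are named, with *SLC7A11*, *GPX4*, *NFE2L2*, *ARRDC4* and *SEPHS2*. Alternatives were DESeq2 1.42.0, total-count and upper-quartile scaling, no filter, at least 1 CPM in 3 libraries, protein-coding genes, a replicate block and each library left out.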

Additional observations from a re-analysis of the deposited data

How the results depend on the processing

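Of the 21 calls among the 41 rows, 11 of the 14 rises (*GCLM*, *GSR*, *GCLC*, *GPX8*, *GSTO1*, *TXNL1*, *TXNRD1*, *GLRX*, *TXNIP*, *SRXN1* and *PRDX1*) and 1 of the 7 falls (*GSTK1*) held in all 13 alternatives, and 9 of the 20 uncalled rows were called in none. Total-count scaling moved most: 4856 genes were called lower, against 3059 under TMM, and 13 rows of the 42 genes, against 7. It turned *PRDX2* to a called fall of -0.184, and the calls it ended or added are named in the report. The share of calls that were rises was 52.4% under TMM and 32.7% under total-count scaling, and the median log2 fold change of all genes was 0.00 and -0.18 there, and 0.11 in DESeq2, which ran without the filter. With a replicate block 13 rows rose and 4 fell (2692 and 2451 of all genes), and *GGT1*, *GGCT*, *CHAC2* and *GSTM1* lost their calls. Same-numbered libraries correlated at 0.0257, 0.0310 and 0.0564 in their deviations from the group means. These values are low, but every library correlated best with its own number. Whether the numbers pair the samples therefore cannot be decided from them, and the main fit treats the samples as unpaired. Leaving out 1 library gave 12 to 15 rises and 2 to 6 falls (2 without DMSO replicate 2, 4 without DMSO replicate 3), and 2786 to 2953 rises and 2284 to 2550 falls over all genes. Fewer libraries were then compared. Without some libraries the medians of the transferases, the peroxiredoxins and the selenocysteine list, all near 0, changed sign. So did the median of the glutathione peroxidases. It was 0.09 with all libraries, -0.18 without DSF/Cu replicate 2 and -0.12 without DMSO replicate 3. The log2 shifts of the ratios ranged from 0.713 to 0.942 (*GCLM* over *GCLC*), 1.18 to 1.33 (*GSR* over *GSS*), 1.25 to 1.305 (*TXNRD1* over *TXNRD2*), 0.305 to 0.368 (*TXNIP* over *TXN*) and 0.657 to 0.709 (*SRXN1* over *PRDX1*). Low counts limit *GPX7* and the second *GGT1* row, and *GPX2* had no counts in any library.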
